A study of Mus musculus with 3 samples.

Results

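Smooth muscle contractile genes were described in glomeruli, the filtering tufts of the kidney, from 3 nondiabetic male FVB/NJ mice aged 8 weeks. The 10 genes are Acta2, Myh11, Tagln, Cnn1, Smtn, Myl9, Lmod1, Synpo2, Mylk and Cald1. They were chosen by name, and every probe set of the array that the platform annotation assigns to a single gene of that name was used, which gave 22 of 45101 probe sets and 10 of 18194 genes. RNA from glomeruli pooled within each mouse was hybridised to 1 Affymetrix mouse expression array per mouse. The mice were wild type, were kept on a Purina diet and served as the nondiabetic controls of the OVE26 line, and the labels name no drug. OVE26 mice were not analysed here, so the data give levels in FVB glomeruli and the spread between mice 1, 2 and 3, with no comparison of conditions.

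Contraction of smooth muscle starts when calcium and calmodulin activate myosin light chain kinase, which phosphorylates the regulatory light chain of myosin and lets the motor pull on actin filaments. A phosphatase reverses this. In the kidney the same machinery is found in the arterioles that feed and drain the glomerulus and, in a less complete form, in the mesangial cells between its capillaries. Transcription of many of these genes is driven by serum response factor (SRF) and its coactivator myocardin at a DNA element named the CArG box. MCAT elements, which TEAD factors bind, also act at the Acta2 promoter.

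The promoter stretches of Acta2 and Myl9 are shown because they are the members in which a search found elements of the CArG type. The sequences are RefSeq's on GRCm38.p6, given 5′ to 3′ on the gene's strand, with matches in capitals. The Acta2 stretch lies at chr19:34255388-34255529 on the minus strand and runs from base -156 to base -15 before the annotated start. Its capitals mark an MCAT match, GGAATG, followed by a pair of CArG-like matches. The Myl9 stretch lies at chr2:156775293-156775384 on the plus strand, from base -171 to base -80. Its capitals mark a CArG box and then a CArG-like match.
Acta2: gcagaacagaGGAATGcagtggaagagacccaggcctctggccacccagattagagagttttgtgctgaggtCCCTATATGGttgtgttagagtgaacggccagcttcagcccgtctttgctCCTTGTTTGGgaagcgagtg
Myl9: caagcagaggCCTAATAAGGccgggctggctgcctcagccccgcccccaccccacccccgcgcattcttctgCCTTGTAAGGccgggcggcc

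The search covered 250 bases before to 50 bases after the start, and 8 of the 10 members had at least 1 such window, 9 windows in all. Myh11 and Tagln had no entry in the table. A strict CArG box, which reads the same way on both strands, was found in 1.63% of all 32851 promoter windows and in 1 of the 9 member windows, that of Myl9 (CCTAATAAGG, from base -161). With exactly 1 G or C in its A/T core, here called CArG-like, it was found in 8.5% of all windows and in those of Acta2 (CCCTATATGG from base -84 and CCTTGTTTGG from base -34) and Myl9 (CCTTGTAAGG from base -99). MCAT was searched as CATTCC on both strands. It occurred in 14.7% of all windows and in 5 of the 9 member windows, those of Acta2, Lmod1, Smtn, Mylk and 1 of the windows of Cald1. A match is a match of letters, and these windows hold only a part of each gene's regulatory sequence.

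Values are log2 GCRMA expression values, 1 per probe set, and each unit is a doubling. The level at which a probe set counts as above background was set on each array from 80 probe sets for olfactory and vomeronasal receptors, at 2.58, 2.91 and 2.86 for mice 1, 2 and 3. The arrays had medians of 2.82, 2.85 and 2.82 after the authors' GCRMA normalisation, which left small differences between the deposited distributions. Differences between mice are relative to the other RNA on the array. Differences in level between genes are not drawn, since probes bind with different strength. In RNA from whole glomeruli, fewer cells of a type and less RNA per cell cannot be told apart.

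**Figure D1:**
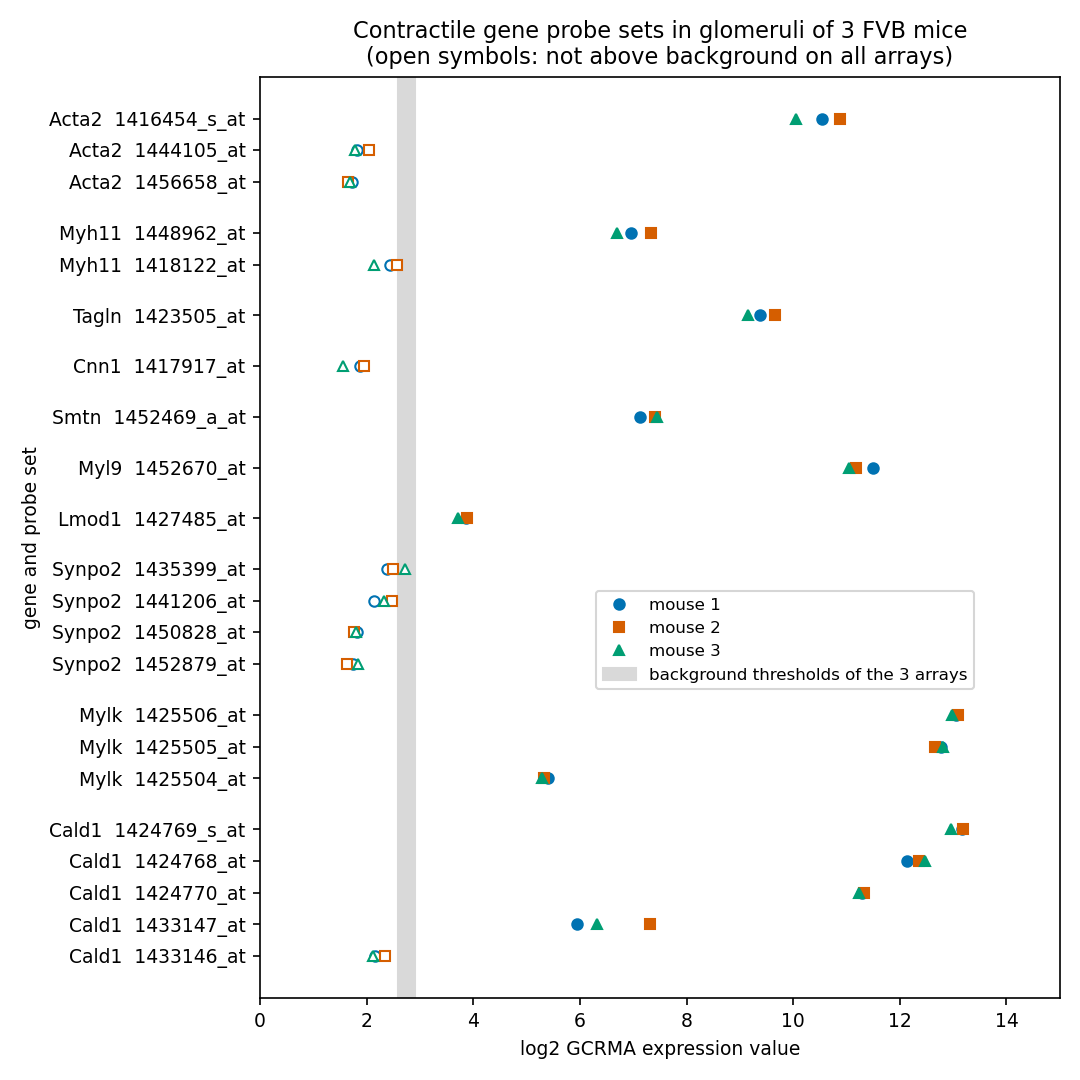
The log2 GCRMA value (horizontal axis) of each of the 22 probe sets of the contractile genes in each mouse, with the range of the background thresholds of the arrays shaded. Filled symbols are the 13 probe sets above background on all 3 arrays, and open symbols are the 9 that were not, which include every probe set of Cnn1 and Synpo2.

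Of the 10 contractile genes, 8 exceeded background in every mouse, and 2, Cnn1 and Synpo2, lay below it in every mouse. Across all genes 58.3% exceeded background in every mouse and 35.3% in none. For a gene with several probe sets, the set with the highest mean stands for it. At the level of probe sets, 13 of 22 were above background on all arrays and the other 9 on none.

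The actin and myosin of the contractile filaments were both measured. Acta2, which encodes smooth muscle alpha-actin, was at 10.54, 10.88 and 10.04 in mice 1, 2 and 3 (mean 10.49 ± 0.42, SD, n = 3). Mouse 2 was highest and mouse 3 lowest, a 1.78-fold range that was the widest of the 8 genes. Myh11, the smooth muscle myosin heavy chain and a marker of mature smooth muscle, was at 6.96, 7.33 and 6.69 (7.00 ± 0.32), with the same order of the mice and a 1.56-fold range.

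Myl9, which encodes the regulatory light chain that the kinase phosphorylates, was at 11.50, 11.17 and 11.05 in mice 1, 2 and 3 (11.24 ± 0.23). It was the only one of the 8 genes that was highest in mouse 1. Mylk, which encodes the light chain kinase, was at 13.06, 13.10 and 12.97 (13.04 ± 0.06), and its 1.09-fold range was the narrowest of the 8.

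Among the proteins that bind actin filaments, Tagln, which encodes transgelin (SM22 alpha), was at 9.38, 9.65 and 9.15 in mice 1, 2 and 3 (9.39 ± 0.25). It followed the order of Acta2 and Myh11, highest in mouse 2 and lowest in mouse 3, over a 1.41-fold range. Cald1 encodes caldesmon, which restrains myosin on actin, and was at 13.16, 13.19 and 12.95 (13.10 ± 0.13), with mice 1 and 2 close together above mouse 3. Smtn, which encodes smoothelin, was at 7.12, 7.41 and 7.44 (7.32 ± 0.18). Among the genes above background it alone was not lowest in mouse 3, since mouse 1 was lowest and mouse 3 highest. Lmod1 encodes leiomodin 1, a protein that starts new actin filaments in smooth muscle, and was at 3.85, 3.89 and 3.71 (3.82 ± 0.10). With a stricter threshold, the 99th percentile of the receptor probe sets in place of the 95th, Lmod1 fell short in mouse 2 alone, at 3.888 against 3.890, and 7 of the 10 genes then counted as above background.

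Cnn1, which encodes calponin 1 of mature smooth muscle, was read by 1 probe set at 1.87, 1.95 and 1.56 in mice 1, 2 and 3, under the threshold of every array. Synpo2, which encodes the actin-bundling protein myopodin, was read by 4 probe sets, whose values ran from 1.64 to 2.71. The brightest was at 2.37, 2.50 and 2.71 and was likewise below the threshold of each array. Such values give no order of the mice and do not show that the RNA was absent.

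Probe sets of the same gene did not always give the same reading. Acta2 was above background in 1 of its 3 probe sets. The sets 1444105_at and 1456658_at had means of 1.88 and 1.68, below background in all mice. The bright set, 1416454_s_at, has the suffix of sets whose probes can be shared by several transcripts, including those of other genes. Of the other muscle actins, Actg2 had a mean of 1.90, Acta1 of 2.30 and Actc1 of 1.78, each below background on all arrays in its own brightest set, and the cytoplasmic actins Actb and Actg1 had means of 14.41 and 13.41. Acta1 and Actc1 were named here after their values were seen. How much of the Acta2 signal comes from relatives was not tested.

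Myh11 was above background in 1 of 2 probe sets, both designed from the same transcript record. The dim set, 1418122_at, was at 2.44, 2.57 and 2.14 in mice 1, 2 and 3. All 3 sets of Mylk were above background, with means of 13.04, 12.74 and 5.34 and SDs of 0.06, 0.08 and 0.05. Each had another mouse at the top, over ranges of 1.08-fold to 1.11-fold.

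Cald1 was above background in 4 of 5 probe sets. The bright sets, 1424769_s_at, 1424768_at and 1424770_at, had ranges of 1.18-fold, 1.26-fold and 1.06-fold, and 1424768_at was highest in mouse 3 while the others were lowest there. The set 1433147_at was designed from another record and stood apart in its spread, at 5.95, 7.31 and 6.32 in mice 1, 2 and 3. This 2.57-fold range, with mouse 2 highest, was the only range of 2-fold or more among the 13 member probe sets above background. With every probe set tested as a feature of its own, its spread did not pass limma's test (adjusted p = 0.97).

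The order of the mice was similar in most members. Of the 8 genes above background, 7 were lowest in mouse 3, against 31.7% of all 10610 genes tested. In mouse 2, 6 of the 8 were highest, against 28.2% of all genes tested. Mouse 1 was lowest for 1 of the 8 (32% of all genes) and highest for 1 (34% of all), and mouse 2 was lowest for 0 (34.5% of all) and mouse 3 highest for 1 (36.3% of all). The same 6 genes, Acta2, Myh11, Tagln, Lmod1, Mylk and Cald1, were highest in mouse 2 and lowest in mouse 3, an order shared by 13.7% of all genes tested. The order is that of the probe set that stands for each gene. For Mylk, 1425505_at had the reverse order, and for Cald1, 1424768_at was highest in mouse 3 and lowest in mouse 1. Over the 13 member probe sets above background, 9 were lowest in mouse 3 (31.4% of all probe sets tested) and 8 highest in mouse 2 (28.7% of all). Sets of the same gene read the same RNA and are not independent.

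The differences behind this order were small. Each mouse was set against the average of the remaining mice. The median of this difference over the 8 genes was -0.25 on the log2 scale in mouse 3, 0.13 in mouse 2 and 0.04 in mouse 1. Over all genes tested these medians were 0.01, -0.02 and 0.00. In mouse 3 the difference was -0.67 for Acta2, -0.45 for Myh11 and -0.36 for Tagln, and in Mylk it was -0.11. With 1 array per mouse, a single mouse has no error of its own and its difference has no test.

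**Figure D2:**
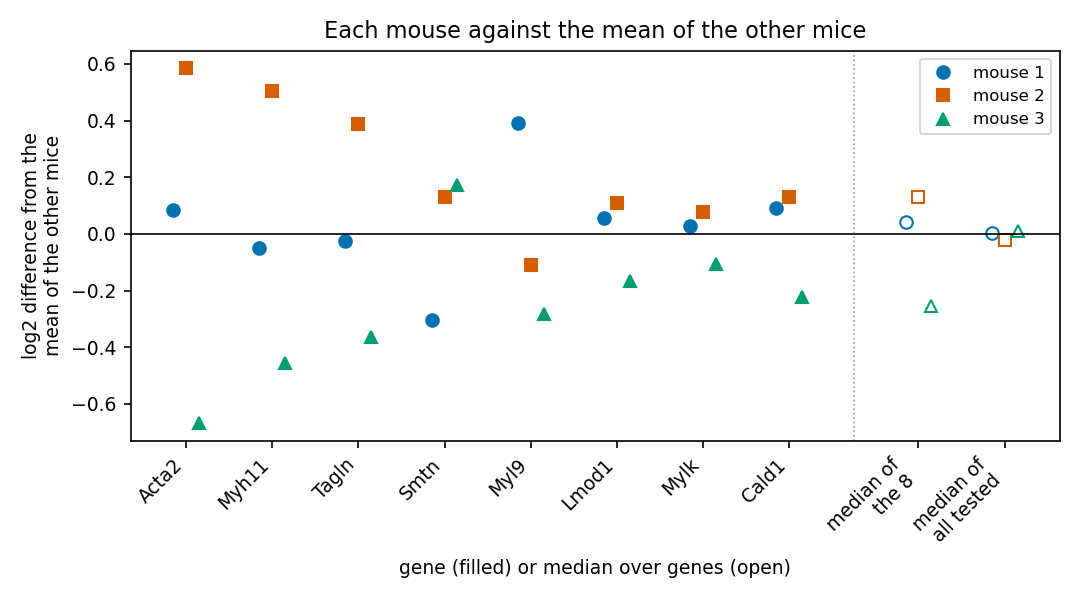
Log2 GCRMA value of each mouse minus the average of the remaining mice (vertical axis) for the 8 contractile genes above background (filled) and as medians over these 8 genes and over all 10610 genes tested (open). Mouse 3 is the lowest point for 7 genes and mouse 1 for Smtn, and the spread is widest for Acta2.

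The spread between mice was tested with limma, which sets the variance of each gene against the variance fitted across all genes of like level. None of the 8 genes passed at an adjusted p of 0.05, and none of the 10610 genes tested did (0% of them). At an unadjusted p under 0.05 stood 1 of the 8, Acta2, against 4.65% of all genes tested. The SD of Acta2 was 0.42, where the fit gave 0.12 at its level (limma, unadjusted p = 0.0313, adjusted p = 0.951). Myl9 had an SD of 0.23 against a fitted 0.11, Tagln 0.25 against 0.13 and Myh11 0.32 against 0.20, with adjusted p of 0.972 for each. Mylk, Smtn and Lmod1 had SDs of 0.06, 0.18 and 0.10, below the fitted 0.09, 0.19 and 0.23. The median SD of the 8 genes was 0.21, against 0.16 over all genes tested. No member had a range of 2-fold or more, which 5.94% of all genes tested had. The test finds only very wide spreads with 3 arrays. In simulated data of the same 10610 genes it recovered 38% of 100 genes whose SD was 20 times the fitted one, and 79% of those at 100 times.

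**Figure D3:**
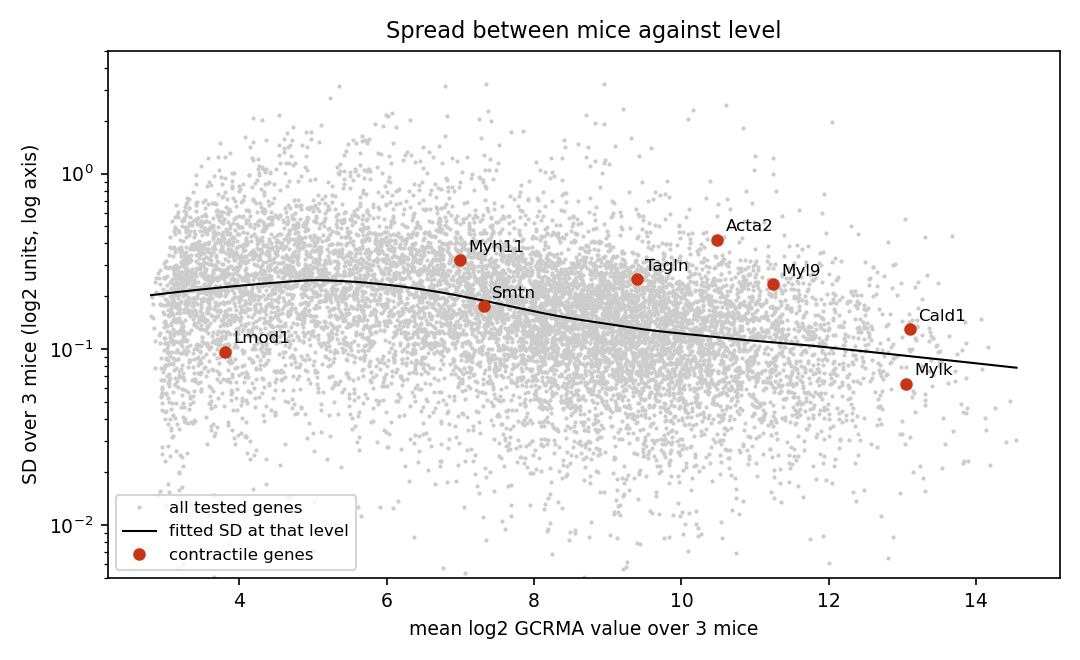
SD over the 3 mice (vertical log axis, in log2 units) against the mean log2 GCRMA value (horizontal axis) for all genes tested (grey), with the fitted SD as a line and the 8 contractile genes in red. Genes with an SD under 0.005 are outside the axis. Acta2 at 0.42 lies highest above the line for its level, and Mylk, Smtn and Lmod1 lie below it.

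The genes nearest to Acta2 in how they varied over the 3 mice were found by the Euclidean distance between deviations from each gene's own mean. They were Parp6, Rin1, Cntln, Dancr and Tdrd5, at distances of 0.02 to 0.05 on the log2 scale. Among the other members, Myh11 was 77th and Tagln 181st of 10609 genes by this distance, and Cald1 was 1115th and Smtn 6316th. With 3 mice many genes fall close to any given pattern, so this ranking only describes these arrays.

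For the counts in the lists that follow, 58.3% of all genes were above background in every mouse and 35.3% in none. Of all genes tested, 32%, 34.5% and 31.7% were lowest in mice 1, 2 and 3, and 34%, 28.2% and 36.3% highest. Transcription factors of the contractile programme were measured in all 6 cases listed, and none passed the test of spread. Srf was at 8.41, 8.63 and 8.61 in mice 1, 2 and 3 (8.55 ± 0.12), within a 1.16-fold range. Myocd, which encodes myocardin, was near background at 3.61, 3.68 and 3.40 (3.57 ± 0.15), with mouse 2 highest and mouse 3 lowest. The list was lowest in mouse 2 for 3 of 6 genes, and its medians lay between -0.06 and 0.11 in the 3 mice. SRF also drives immediate early genes, and these differed in the lowest mouse. All 5 above background were lowest in mouse 1 (32% of all genes tested), and 3 were highest in mouse 2 (28.2% of all). Srf itself is counted in both lists. Fos was at 8.75, 10.10 and 10.09 and Egr1 at 8.43, 9.54 and 9.21, ranges of 2.56-fold and 2.16-fold that did not pass the test (adjusted p of at least 0.707).

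The list of calcium entry and release had 6 genes with a probe set, which encode calcium channels, calcium-activated potassium channel subunits and a calcium pump. Of these, 4 were below background in all mice (35.3% of all genes), namely the calcium channel genes Cacna1d and Ryr2, at means of 2.17 and 1.76, and the potassium channel genes Kcnmb1 and Kcnma1, at 2.17 and 2.34. Cacna1c, the L-type channel of vascular smooth muscle, was at 2.45, 2.47 and 2.88 and exceeded the threshold in mouse 3 alone. The gene above background in all mice was Atp2a2, which encodes the calcium pump of the sarcoplasmic reticulum, at a mean of 11.59. Ryr2, Kcnmb1, Kcnma1 and Atp2a2 were named after their values were seen.

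Receptors that make arterioles and mesangium contract were above background for 4 of 5 genes with a probe set. Agtr1a, the angiotensin II receptor of type 1a, was at 11.81, 11.62 and 11.51 in mice 1, 2 and 3 (11.64 ± 0.15), and Agtr1b was below background at a mean of 2.03. Ptger3, a prostaglandin E2 receptor, was at 6.06, 7.72 and 6.73, a 3.16-fold range with mouse 2 highest and mouse 1 lowest (limma, adjusted p = 0.869). Of 5 loop and distal tubule genes, described below, 4 had the same highest and lowest mouse. Which cells gave the Ptger3 signal was not tested.

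Other thin filament and dense body genes were above background for 11 of 12, with a median SD of 0.13. Tpm1, which encodes tropomyosin 1, was at 11.20, 11.10 and 10.93 in mice 1, 2 and 3. Of the 11 genes, 6 were lowest in mouse 3 (31.7% of all genes tested). In mouse 2, 3 of the 11 were highest, near the share of all genes tested (28.2%). Non-muscle and widely expressed relatives were above background for 11 of 12, and 5 of the 11 were lowest in mouse 3 and 6 highest in mouse 2. Actb was at 14.41, 14.43 and 14.37, near the top of each array (14.66 to 14.76), a range in which differences can be compressed. Myl6, which encodes an essential light chain of non-muscle and smooth muscle myosin, had a 2.34-fold range at 6.63, 7.86 and 7.09, the only 2-fold range of that list, and did not pass the test (adjusted p = 0.972).

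Markers of the cells that could carry these genes, and of other cells of the isolate, gave orders of the mice that differed between lists. The podocyte order was close to that of the contractile genes. Of 9 mesangial and pericyte genes all were above background, with 5 of the 9 lowest in mouse 2 and 2 lowest in mouse 3. Des, 1 of the 9, is also counted with the thin filament genes. The median differences of the mesangial and pericyte genes were 0.01, -0.11 and 0.03 in mice 1, 2 and 3. Pdgfrb, the receptor of platelet-derived growth factor B on these cells, was at 13.28, 13.19 and 13.34 in mice 1, 2 and 3. Itga8, which encodes an integrin subunit of mesangial cells, was at 13.42, 13.48 and 13.25. The summed linear level of the 9 genes, weighted to the brightest, Itga8 and Pdgfrb, was 32087, 31316 and 31780. All 5 podocyte genes were lowest in mouse 3, and 3 of the 5 were highest in mouse 2. Their median differences were 0.05, 0.12 and -0.24 in mice 1, 2 and 3. Those of the contractile genes were 0.04, 0.13 and -0.25. Podxl, the podocyte sialoprotein, was at 14.56, 14.56 and 14.51, and the nephrin gene Nphs1 at 11.36, 11.30 and 10.90. All 7 glomerular endothelial genes were above background, 6 of them highest in mouse 1 and 4 lowest in mouse 3, with Kdr, a VEGF receptor gene, at a mean of 12.48, so markers of podocytes, endothelium and mesangium were each present, as the tissue label states. Of 7 genes listed for vascular fibroblasts 4 exceeded background, with mouse 3 lowest in 2. They were Pi16 at a mean of 11.72, Col1a2 at 10.99, Col3a1 at 5.45 and Dcn at 3.29. Col1a1 was below background at 2.57. Col1a2 was at 10.91, 11.26 and 10.80 in mice 1, 2 and 3, highest in mouse 2 and lowest in mouse 3 like most contractile genes. Pi16, Col1a2 and Col3a1 were named after their values were seen. Of 6 striated muscle genes 5 were below background in all mice, including Ckm and Actn2.

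Tubule and leukocyte markers had wider median ranges between the isolates than the contractile genes, with orders of the mice of their own. The median was 9.93-fold for proximal tubule, 3.77-fold for loop and distal and 5.48-fold for leukocyte genes, against 1.31-fold. The narrowest leukocyte range was 1.64-fold, under the 1.78-fold of Acta2. All 8 proximal tubule genes above background, of 9 listed, were highest in mouse 3 and 7 of the 8 were lowest in mouse 1, and the summed linear level of the list was 1451, 2094 and 8384 in mice 1, 2 and 3. Loop and distal genes were highest in mouse 2 and lowest in mouse 1 for 4 of 5, with sums over the 7 listed genes of 6871, 15890 and 10632. Leukocyte genes were highest in mouse 1 for 5 of 5 and lowest in mouse 3 for 4 of 5, with sums over 7 listed genes of 1137, 482 and 225. A linear sum is weighted to the brightest gene of its list, here Kap, Umod and Lyz2 at means of 11.24, 13.03 and 8.24. Of 64 control probe sets, the 18 for bacterial Bio and phage P1 Cre sequences were all highest in mouse 2, by a median of 0.54. The 3′ minus 5′ difference of the actin control, a sign of RNA quality, was 1.49, 1.81 and 2.05 in mice 1, 2 and 3, and that of Gapdh was 0.48, 1.08 and 0.92. The part of these differences in the order of the contractile genes was not tested.

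**Figure D4:**
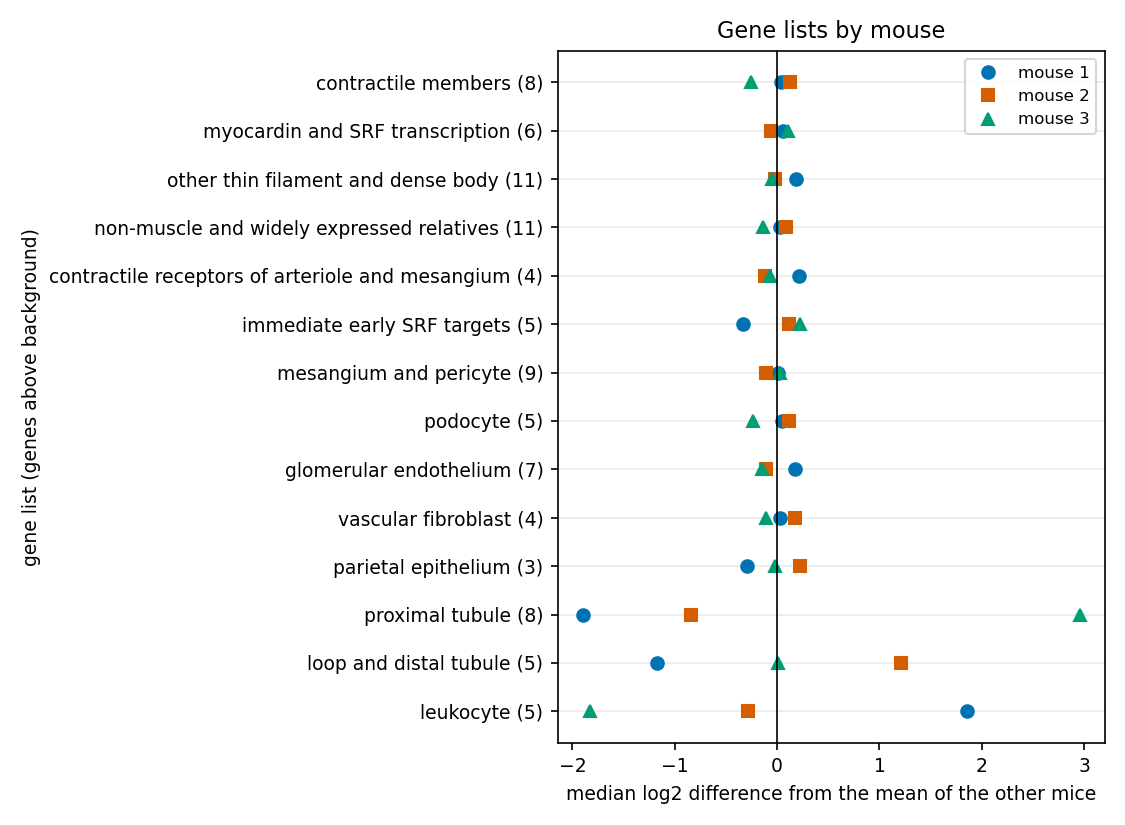
Median over each gene list of the log2 value of a mouse minus the average of the remaining mice (horizontal axis). Shown are the lists described and a list of parietal epithelium, each with at least 3 genes above background (numbers in brackets). The medians of parietal epithelium were -0.29, 0.22 and -0.02 in mice 1, 2 and 3. The contractile genes lie within 0.26 of 0 in every mouse, while proximal tubule genes reach 2.96 in mouse 3.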

How the data were processed

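The deposited table holds 1 log2 value per probe set and array, made by the authors with GCRMA per the submitters' processing notes. The version and the set of arrays normalised together are not given in the sources used here, and a log2 scale was read from their range (0.67 to 14.76). Any 2 arrays share exactly equal values in 2.18% to 2.49% of probe sets, which lowers the SD of those sets. The values were used as deposited.

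The platform annotation gave 1 gene symbol to 34958 probe sets, which were used. Of these, 34754 matched the RefSeq gene table of GRCm38.p6 by gene identifier, and 0 symbols needed an update. Sample columns left unused numbered 0. A gene was tested when its brightest probe set exceeded, on all 3 arrays, the 95th percentile of 80 olfactory and vomeronasal receptor probe sets. Excess variance was tested with limma 3.58.1 in R 4.3.3 (scaled F distribution, trend on level, robust fit, one-sided upper tail, Benjamini-Hochberg over 10610 genes, threshold 0.05), after a test on simulated data. Whether the mice came from separate litters is not given, so p-values measure only the spread between these samples, and the number of arrays limits the precision.

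The members and lists were chosen with earlier results of these data known. The text names all members, the first 2 genes of each list with a probe set, list genes past the test or with a 2-fold range, and the 5 genes nearest to Acta2; list genes of other cells were named in part. Some genes are named by other criteria, as stated beside them. No probe set was used for Ren1 and Akr1b7, so renin cells were not analysed here. A list of light chain regulators is not reported here. Alternatives were another background threshold, the mean over probe sets, no filter, quantile normalisation, median centring, a fit with no trend, each probe set as a feature, and leaving out each mouse.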

Additional observations from a re-analysis of the deposited data

How the results depend on the processing

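Under the alternatives run, no member and no gene of the arrays passed the test of excess variance, and no member gene had a 2-fold range. Members lowest in mouse 3 numbered 7 of 8. The share over all genes was not computed under the alternatives, so the counts that follow have no share to be read against. With the stricter threshold, 6 of 7 members were lowest in mouse 3, with the mean over probe sets 6 of 8 and with no filter 8 of 10. The count with no filter includes Cnn1, which lies below background and gives no order of the mice. Without mouse 1 or without mouse 2, members lowest in mouse 3 numbered 7 of 8. This count could not fall below 7, since a gene lowest in mouse 3 stays lowest there when another mouse is left out. Members lowest in mouse 1 numbered 1, and 2 with the mean over probe sets or with no filter on dim genes. With no filter these include Synpo2, which also lies below background. Leaving out each mouse in turn, the members lowest in mouse 1 ranged from 1 to 7, the 7 being without mouse 3, and those lowest in mouse 2 numbered 1 without mouse 1 or without mouse 3, against 0 with all mice. The median SD of the members ranged from 0.15 to 0.20 when a mouse was left out, and the median difference of mouse 3 from -0.22 to -0.21. Without mouse 3 the median difference of mouse 1 was -0.15, against 0.04 with all mice. With the mean over its probe sets the SD of Acta2 was 0.18 in place of 0.42, since the dim sets enter the mean. Single SDs depended on 1 mouse: without mouse 3 that of Cald1 was 0.02 in place of 0.13, that of Lmod1 0.02 in place of 0.10, that of Mylk 0.02 in place of 0.06 and that of Acta2 0.24 in place of 0.42, and without mouse 1 that of Smtn was 0.02 in place of 0.18 and that of Myl9 0.08 in place of 0.23. Without mouse 2 that of Myh11 was 0.19 in place of 0.32 and that of Tagln 0.16 in place of 0.25. With so few arrays, missing the threshold under an alternative says nothing on stability. No paired analysis was possible because the labels give a single group. Low signal limits Lmod1 and Myocd, and gives no usable level for Cnn1 and Synpo2.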
